A study of Mus musculus with 8 samples.

Results

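REST and a set of neuronal RNA-binding proteins were followed in cancers of the mouse gastric squamous-columnar junction (SCJ), the border where the squamous forestomach meets the glandular stomach. The set comprised 10 genes chosen by symbol from the 23361 genes of the deposited RNA sequencing table, namely Rest, Srrm4, Elavl2, Elavl3, Elavl4, Celf3, Celf4, Celf5, Nova1 and Nova2. The 5 cancers carried Trp53-/-Rb1-/- in cells that had expressed Lgr5, after tamoxifen had activated Cre in adult mice with eGFP-Ires-CreERT2 in the Lgr5 locus, floxed Trp53 (loxP/loxP), floxed Rb1 (loxP/loxP) and the Ai9 tdTomato reporter. The 3 controls were SCJ tissue of age-paired wild type mice, so that Cre, floxed alleles and reporter differ between the groups along with the cancer, and whether these 3 controls received tamoxifen is not stated for the sequenced tissue. Both groups were dissected tissue and not sorted cells. The labels do not state that every sample came from its own animal, and p-values measure only the spread between these samples.

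REST, also called NRSF, is a zinc finger repressor that binds the RE1 element and keeps neuronal genes silent in cells that are not neurons. It recruits the CoREST and SIN3 corepressor complexes with their histone deacetylases and histone demethylase, and its loss accompanies the start of neuronal gene expression. SRRM4 (nSR100) is a neural splicing factor that promotes the inclusion of microexons and redirects the splicing of the Rest transcript itself, while Rest represses Srrm4. The other members bind RNA in neurons. ELAVL2, ELAVL3 and ELAVL4 (the Hu antigens) stabilise transcripts rich in AU elements, CELF3, CELF4 and CELF5 regulate splicing and translation, and NOVA1 and NOVA2 direct alternative splicing at YCAY motifs. Several of these genes are also active in neuroendocrine cells and their cancers.

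Values are FPKM (fragments counted per kilobase of transcript and relative to all mapped fragments), which the authors rounded to whole numbers, and sequencing depth is unknown. Their sum per library came to between 403569 and 573858 for the cancers and between 887141 and 992550 for the controls, and the 10 most abundant genes took 11.1% to 19.6% and 39.3% to 44.3% of these sums. A 0 is given as a listed value, since Pgc, the pepsinogen C gene of chief cells, was listed at 28832, 0 and 0 in the 3 controls. The 14357 genes that reached an FPKM of 1 in 3 or more samples were compared by limma on log2(FPKM + 1), with log2 differences given as cancer minus control. Differences on this scale understate those of low genes. At an adjusted p under 0.05, 34.5% of the tested genes passed in either direction, 16.2% higher and 18.3% lower in the cancers. Values of the groups were fully apart for 34.1% of these genes, with 14.4% higher and 19.8% lower. Of the targeted genes, Trp53 was at 12, 22, 12, 30 and 12 FPKM in cancers 1 to 5 and at 16, 17 and 19 in controls 1 to 3 (log2 difference -0.08 ± 0.33 SE, adjusted p = 0.87 in limma). Rb1 was at 4, 4, 5, 6 and 4 in the cancers and at 9, 9 and 10 in the controls (log2 difference -0.90 ± 0.16 SE, adjusted p = 0.0059 in limma), a call lost with TPM, each library scaled to the same sum (-0.05, adjusted p = 0.84 in limma). That scaling moved the median log2 difference over all genes to 0.81, and Rb1 stood at -0.86 relative to it. Trp53 was then past the threshold in the higher direction (0.86, adjusted p = 0.02 in limma), at 0.05 relative to that median. A value per gene covers the exons outside the deletion too.

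Of the 10 members, 7 passed the low-value filter and all 7 were past the threshold, 6 higher and Rest lower in the cancers. Rest was lower in every cancer than in any control, whereas Srrm4, Elavl4, Celf3, Celf4, Nova1 and Nova2 were higher in every cancer than in any control. Elavl2 and Elavl3 were listed at 0 in all 8 libraries and Celf5 was listed at 1 in a single cancer, and these 3 genes were not tested. Because the 6 RNA-binding protein genes that were tested passed the filter through their values in the cancers, their count cannot be read against the 16.2% of genes called higher. In the two-sided exact permutation test over all 56 ways to split the 8 samples, each of the 7 gave p = 0.018, the smallest p that the design allows. In tissue samples, a smaller number of cells of a type and less RNA per cell cannot be told apart.

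**Figure D1:**
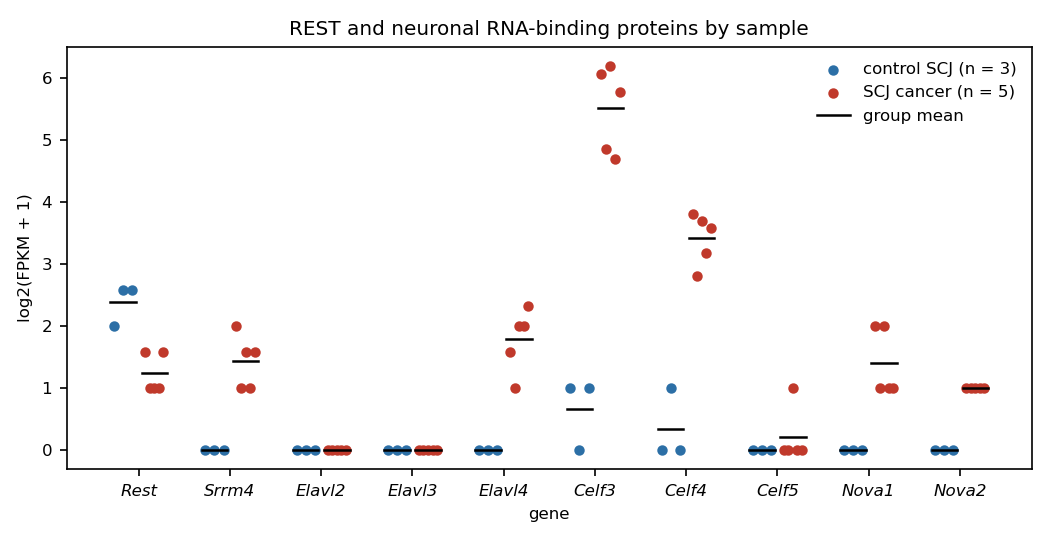
Expression of Rest and the 9 neuronal RNA-binding protein genes in each sample, as log2(FPKM + 1), with one point per sample (blue, 3 controls, red, 5 cancers) and a black bar at the group mean. Rest lies lower in all 5 cancers than in the controls, Celf3 stands far above every other member in the cancers with Celf4 next, and Elavl2 and Elavl3 lie at 0 throughout.

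Rest (chromosome 5, 77265494 to 77283697, mm10) was listed at 2, 1, 1, 1 and 2 FPKM in cancers 1 to 5 and at 3, 5 and 5 in controls 1 to 3. The cancers averaged 1.4 ± 0.548 FPKM (SD, n = 5) and the controls 4.33 ± 1.15 (SD, n = 3), so that the control mean was 3.1 times the cancer mean. The highest cancers lay 1 rounding step below the lowest control. On the log2(FPKM + 1) scale the difference was -1.16 (SE 0.24, adjusted p = 0.01 in limma), and the adjusted p reached at most 0.046 when any 1 sample was left out. With TPM Rest stood at -0.52 (adjusted p = 0.24 in limma), which is -1.33 relative to the median of all genes, and was no longer past the threshold.

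To compare Rest with genes of the same library, and after its values were seen, its ratio to 3 broadly expressed genes was computed. The log2 ratio of (Rest + 1) to (Elavl1 + 1), a ubiquitous Hu protein gene, was -2.71 ± 0.23 (SD, n = 5) in the cancers and -1.45 ± 0.31 (SD, n = 3) in the controls (difference -1.26, two-sided exact permutation p = 0.018, 0.027 after adjustment over the 3 ratios). Relative to Celf1, a ubiquitous CELF gene, the difference was -0.99 (exact permutation p = 0.018, adjusted 0.027). Neither ratio overlapped between the groups, and the scaling between libraries enters such a ratio only through the pseudocount of 1 and the rounding, which at 1 or 2 FPKM can move Rest by a whole step. Relative to its corepressor gene Rcor1 the difference was 0.59 and the groups overlapped (exact permutation p = 0.071, adjusted 0.071).

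Rcor1, which encodes CoREST, was itself lower. It was listed at 8, 6, 6, 3 and 8 FPKM in the cancers and at 26, 20 and 21 in the controls, with no overlap (log2 difference -1.74 ± 0.28 SE, adjusted p = 0.0043 in limma). As for Rest, the call was lost with TPM (log2 difference -0.88, adjusted p = 0.076 in limma). Of 20 tested genes for REST cofactors and regulators of REST stability, 2 were higher, 5 were lower and 13 did not pass, with a median log2 difference of -0.10 beside -0.038 for all genes tested. The 35% called were close to the 34.5% of all genes. With TPM, 12 of the 20 passed, all of them higher, where 53.7% of all genes passed and 93.1% of those were higher.

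Kdm1a, the LSD1 histone demethylase that works with CoREST, was at 31, 21, 33, 20 and 31 FPKM in the cancers and at 15, 16 and 14 in the controls. Its log2 difference of 0.79 (SE 0.20, adjusted p = 0.021 in limma) was opposite in direction to those of Rest and Rcor1, and the adjusted p rose to at most 0.073 when a sample was left out. Ctdsp1, a small phosphatase that stabilises REST, was at 25, 48, 30, 33 and 27 in the cancers and at 60, 51 and 66 in the controls (log2 difference -0.87 ± 0.22 SE, adjusted p = 0.021 in limma). Usp15, a deubiquitinase of REST, was at 15, 13, 18, 21 and 18 in the cancers and at 39, 33 and 22 in the controls (log2 difference -0.83 ± 0.22 SE, adjusted p = 0.025 in limma). With TPM their log2 differences were 0.09 and 0.11, which is -0.72 and -0.70 relative to the median of all genes. The calls of both were lost with TPM and without some single samples. The histone deacetylase gene Hdac1, at 33 to 43 in the cancers and 33 to 50 in the controls, and Sin3a, at 7 to 15 and 8 to 9, did not pass the threshold on the deposited scale.

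**Figure D2:**
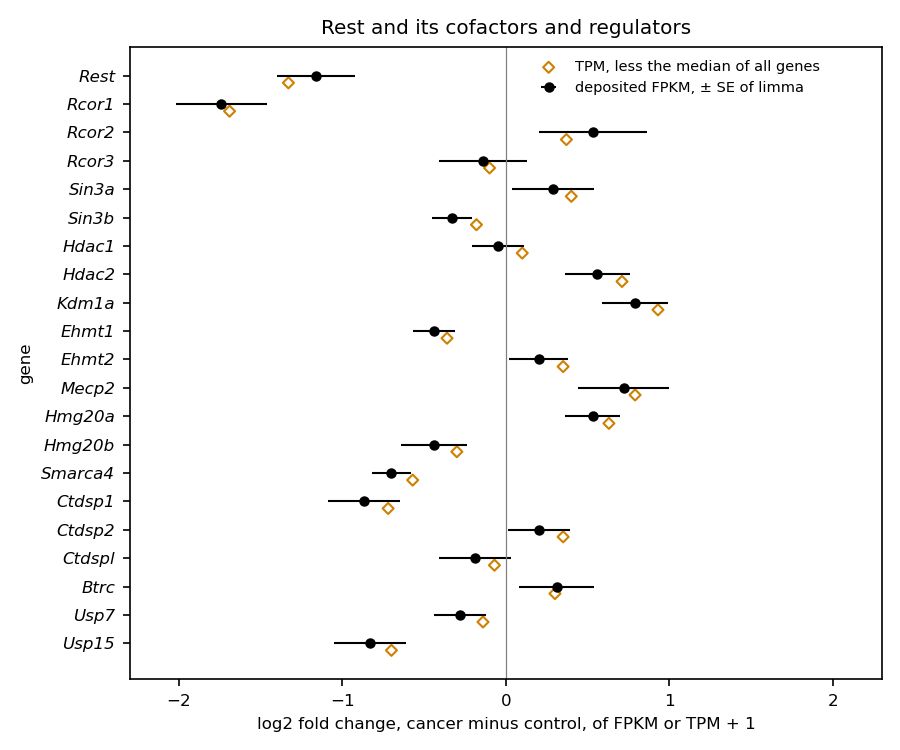
Log2 difference (cancer minus control) of Rest and 20 genes for its cofactors and regulators. Black points with bars are the limma estimate ± standard error on log2(FPKM + 1), and open diamonds are the TPM estimate less the median of all genes (0.81). Rest and Rcor1 lie furthest to the left on both scales, at -1.16 and -1.74 for FPKM and at -1.33 and -1.69 for TPM, and Kdm1a lies to the right at 0.79.

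Srrm4 (chromosome 5, 116438722 to 116591817) was listed at 3, 1, 2, 1 and 2 FPKM in cancers 1 to 5 and at 0 in all 3 controls. It was above 0 in every cancer (adjusted p = 0.0058 in limma, at most 0.028 when any 1 sample was left out), at a low level of a few rounding steps. Its closest relative Srrm3, another promoter of neural microexons, had a like pattern at 4, 2, 4, 3 and 4 in the cancers and 0 in the controls (adjusted p = 0.001 in limma). The broadly expressed serine/arginine matrix genes did not pass. Srrm1 was at 16 to 31 in the cancers and 25 to 29 in the controls (log2 difference -0.24 ± 0.20 SE, adjusted p = 0.37 in limma). Srrm2 was at 23 to 47 and 29 to 37 (log2 difference 0.06 ± 0.28 SE, adjusted p = 0.89 in limma).

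Within a library, the log2 ratio of (Srrm4 + 1) to (Rest + 1) was 0.42, 0, 0.58, 0 and 0 in the cancers, whereas it was -2, -2.58 and -2.58 in the controls. The repressor and the splicing factor were thus listed at equal values in 3 cancers, with Srrm4 above Rest in the other two, while Rest was above Srrm4 in every control. The difference was 2.59. It adds nothing to the tests of the 2 genes, since each of them already lay apart between the groups and in opposite directions. The ratio of Srrm4 to Srrm2 differed by 1.38 without overlap (two-sided exact permutation p = 0.018, 0.032 after adjustment over 9 ratios of a member to a relative or to another member). Srrm4 already lay apart between the groups and Srrm2 did not pass, so that this ratio is not separate support.

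Of the 3 neuronal ELAVL genes, Elavl4 alone was listed above 0 in any library. Elavl4 (chromosome 4, 110203737 to 110351911) was at 2, 1, 3, 3 and 4 FPKM in the cancers and at 0 in the 3 controls (adjusted p = 0.0044 in limma, at most 0.024 when any 1 sample was left out). Elavl2 (chromosome 4, 91250767 to 91399984) and Elavl3 (chromosome 9, 22015005 to 22052023) were listed at 0 in every cancer and every control. A value under 1 FPKM may have been rounded to 0, so that 0 does not show absence. Elavl1, the ubiquitous family member, did not pass, at 16, 14, 14, 13 and 15 in the cancers and at 13, 13 and 14 in the controls (log2 difference 0.10 ± 0.11 SE, adjusted p = 0.49 in limma). The log2 ratio of Elavl4 to Elavl1 was -2.16 ± 0.52 (SD, n = 5) in the cancers and, with Elavl4 at 0, between -3.91 and -3.81 in the controls, without overlap (exact permutation p = 0.018, adjusted 0.032). It repeats the separation of Elavl4 itself and is not separate support.

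Celf3 and Celf4 held the highest levels of the members in the cancers. Celf3 (chromosome 3, 94478831 to 94492193) was at 66, 28, 72, 25 and 54 FPKM in cancers 1 to 5 and at 1, 0 and 1 in controls 1 to 3. The group means were 49 ± 21.6 (SD, n = 5) and 0.667 ± 0.577 (SD, n = 3), with a log2 difference of 4.85 on log2(FPKM + 1) (SE 0.43, adjusted p = 0.00079 in limma). The ratio of the means was 73.5, but its denominator rests on values of 0 and 1. Celf4, on chromosome 18, was at 13, 6, 12, 8 and 11 in the cancers and at 0, 1 and 0 in the controls. Its means were 10 ± 2.92 (SD, n = 5) and 0.333 ± 0.577 (SD, n = 3), with a log2 difference of 3.08 (SE 0.32, adjusted p = 0.0011 in limma). Both calls held with TPM (5.88 and 4.04) and without any single sample, with adjusted p of at most 0.008 and 0.01 in limma. Celf5 (chromosome 10, 81459228 to 81482709) was listed at 1 in cancer 3 and at 0 in the 7 other libraries.

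Of the CELF genes that are not members, Celf6, also enriched in neurons, was at 10, 3, 10, 4 and 10 FPKM in the cancers and at 0 in the 3 controls (adjusted p = 0.0026 in limma). Celf1 was at 29, 22, 24, 17 and 32 in the cancers and at 29, 28 and 25 in the controls (log2 difference -0.16 ± 0.20 SE, adjusted p = 0.55 in limma). Celf2 was at 6, 2, 4, 3 and 5 and at 2, 3 and 3 (log2 difference 0.40 ± 0.29 SE, adjusted p = 0.3 in limma). Over the 7 relatives of the members in the ELAVL, CELF and SRRM families, 2 were higher (Celf6 and Srrm3) and 0 lower, with a median log2 difference of 0.10. The 28.6% called compares with 34.5% of all genes, and both genes, at 0 in every control, passed the low-value filter through the cancers. The log2 ratio of Celf3 to Celf1 was 0.86 ± 0.49 (SD, n = 5) in the cancers, where every library held more Celf3 than Celf1, and -4.16 ± 0.62 (SD, n = 3) in the controls. The difference was 5.02, and that of Celf4 to Celf1 was 3.24 (exact permutation p = 0.018, adjusted 0.032, for each). Both ratios repeat the separation of Celf3 and Celf4 themselves and are not separate support. Celf5 to Celf1 differed by 0.36 with overlap (exact permutation p = 0.39, adjusted 0.44).

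**Figure D3:**
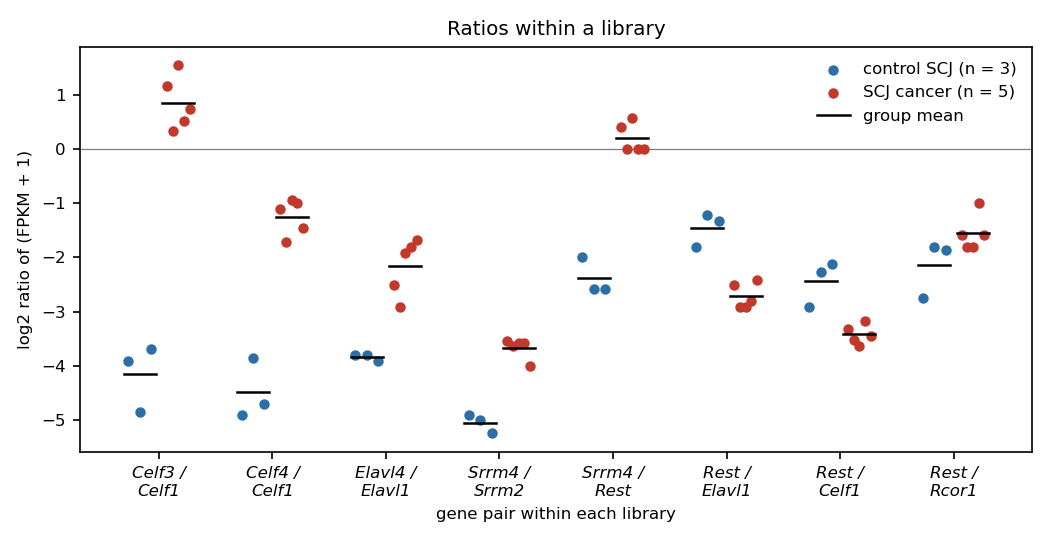
Log2 ratio of (FPKM + 1) between pairs of genes in the same library, with one point per sample (blue, 3 controls, red, 5 cancers) and a black bar at the group mean. The ratios of Celf3, Celf4 and Elavl4 to a ubiquitous relative and of Srrm4 to Srrm2 and Rest lie higher in every cancer than in any control, those of Rest to Elavl1 and Celf1 lie lower, and that of Rest to Rcor1 overlaps.

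Both NOVA genes were low. Nova1 (chromosome 12, 46694517 to 46818775) was at 3, 1, 3, 1 and 1 FPKM in the cancers and at 0 in the 3 controls (adjusted p = 0.013 in limma, at most 0.049 when any 1 sample was left out). Nova2 (chromosome 7, 18925888 to 18965319) was at 1 in each of the 5 cancers and at 0 in each control (adjusted p = 0.0011 in limma). That difference is a single rounding step, and the identical values leave Nova2 no measured spread within a group. Both calls were lost with quantile normalization (log2 differences 0.85 and 0.45, adjusted p = 0.072 and 0.08 in limma). The log2 ratio of Nova1 to Nova2 differed by 0.40 between the groups (exact permutation p = 0.46, adjusted 0.46).

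In the order of FPKM in the cancers, Celf3 (25 to 72) stood above Celf4 (6 to 13), and Celf4 above Elavl4 (1 to 4), without overlap between neighbours. Elavl4, Srrm4 and Nova1 (1 to 3 each), Rest (1 to 2) and Nova2 (1) overlapped and cannot be ordered by these values. In the controls Rest (3 to 5) was above all 9 others, none of which exceeded 1. Among the cancers, Celf3 and Srrm4 were lowest in cancers 2 and 4, at 28 and 25 FPKM for Celf3 and at 1 each for Srrm4. Celf4 was also lowest there, at 6 and 8, whereas Elavl4 was at 1 in cancer 2 and at 3 in cancer 4.

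Those 2 cancers also carried the most gastric epithelial transcript. Gkn1, gastrokine 1 of surface mucous cells, was at 491, 12040, 1023, 9669 and 2588 FPKM in cancers 1 to 5 and at 41821, 33163 and 40890 in controls 1 to 3. Atp4b, the parietal cell proton pump subunit, was at 0, 603, 106, 1336 and 41 in the cancers and at 2328, 3906 and 3584 in the controls, and the squamous keratin gene Krt5 was at 0, 1, 85, 574 and 57 and at 128, 170 and 203. Over the 11 gastric and squamous markers the summed FPKM was 522 to 59907 in the cancers and 110489 to 174310 in the controls. Of the 11, 1 was past the threshold, beside 34.5% of all genes. However, 7 were lower in every cancer than in any control, beside 19.8% of all genes, and the median log2 difference was -4.71. The part of this difference in tissue makeup in the values of Rest and of the RNA-binding protein genes was not tested. Myh11, smooth muscle myosin, was at 2, 155, 36, 25 and 7 in the cancers and at 31, 50 and 31 in the controls. The 4 smooth muscle markers summed to 21 to 851 and 192 to 265, with 0 past the threshold beside 34.5% of all genes. Alb, the albumin gene of hepatocytes, was at 16, 18, 58, 1 and 266 in the cancers and at 1 in each control. The 6 hepatocyte markers summed to 1 to 562 and to 1, with 2 tested and 0 past the threshold beside 34.5% of all genes. The part of smooth muscle and of hepatocytes in the levels of the members was not tested.

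Among 17 other tissue-restricted splicing regulators, 14 were tested, of which 3 were higher and 3 lower, with a median log2 difference of -0.05. The 42.9% called was not far from the 34.5% of all genes. Khdrbs3 (SLM2), a STAR family protein of brain and testis, was at 101, 44, 78, 36 and 48 FPKM in the cancers and at 8, 10 and 13 in the controls (log2 difference 2.38 ± 0.35 SE, adjusted p = 0.0033 in limma). Ptbp2, the neuronal polypyrimidine tract binding protein, was at 7, 5, 11, 9 and 6 and at 2, 3 and 1 (log2 difference 1.53 ± 0.30 SE, adjusted p = 0.0086 in limma). Its ubiquitous counterpart Ptbp1 was at 67 to 89 in the cancers and 71 to 89 in the controls (log2 difference 0.03 ± 0.14 SE, adjusted p = 0.9 in limma).

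Esrp2, an epithelial splicing regulator, was at 2, 16, 5, 16 and 15 in the cancers and at 41, 35 and 41 in the controls (log2 difference -2.05 ± 0.61 SE, adjusted p = 0.035 in limma). The call for Esrp2 was lost with TPM (-1.19, adjusted p = 0.096, and -2 relative to the median of all genes) and without some single samples, where limma gave an adjusted p of up to 0.11. Rbfox2 was at 13, 9, 10, 6 and 13 and at 4, 6 and 5 (log2 difference 0.87 ± 0.26 SE, adjusted p = 0.034 in limma), with overlapping groups and an adjusted p of up to 0.12 when a sample was left out. The neuronal genes Rbfox1 and Rbfox3 were listed at 0 in all 8 libraries.

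Known targets of REST were then read from the same fit. Of 30 genes for which REST binding or repression is well established, 27 were tested, 22 were higher, 0 were lower and 5 did not pass. The 81.5% called compares with 34.5% of all genes, and the median log2 difference was 2.80 beside -0.038 for all genes. Of the 22 genes called, 11 were listed at 0 in every control and 11 were above 0 in a control. The first kind passed the low-value filter through the cancers, so that only a part of the count can be set beside the background. Without the 12 tested genes listed at 0 throughout a group the median was 2.46. The list was drawn up with earlier results of these data known and many of its genes are also endocrine secretory genes, so that it is not independent evidence on REST.

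The 4 genes with the largest differences encode proteins of secretory granules. Chgb, chromogranin B, was at 7002, 4256, 5738, 1725 and 2272 FPKM in the cancers and at 7, 21 and 8 in the controls (log2 difference 8.30 ± 0.56 SE, adjusted p = 0.00036 in limma). Scg3, secretogranin III, was at 667, 269, 599, 329 and 353 and at 2, 3 and 2 (log2 difference 6.98 ± 0.33 SE, adjusted p = 0.00013 in limma). Scg2, secretogranin II, was at 311, 178, 505, 373 and 736 and at 3, 4 and 3 (log2 difference 6.46 ± 0.42 SE, adjusted p = 0.00033 in limma). None of the 3 overlapped between groups. Vgf, a secreted neuropeptide precursor, was at 237, 116, 128, 220 and 240 and at 0 in each control (adjusted p = 9.8e-05 in limma).

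Unc13a, a synaptic vesicle priming factor, was at 9, 3, 10, 6 and 11 FPKM in the cancers and at 0 in each control (adjusted p = 0.0016 in limma). Of the genes that did not pass, Stmn2 was at 1, 5, 1, 3 and 1 in the cancers and at 1, 2 and 2 in the controls (0.13, adjusted p = 0.83 in limma), and L1cam was at 1, 5, 1, 3 and 2 and at 3, 4 and 5 (-0.67, adjusted p = 0.2 in limma). Tubb3, at 0, 4, 2, 6 and 9 and at 2, 2 and 3, Grin1 and Scn2a1 also did not pass, and Crh, Calb1 and Cplx1 were not tested. Stmn2, L1cam, Tubb3, Grin1, Scn2a1 and Unc13a fall outside the rule for named genes and were chosen after their values were seen.

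**Figure D4:**
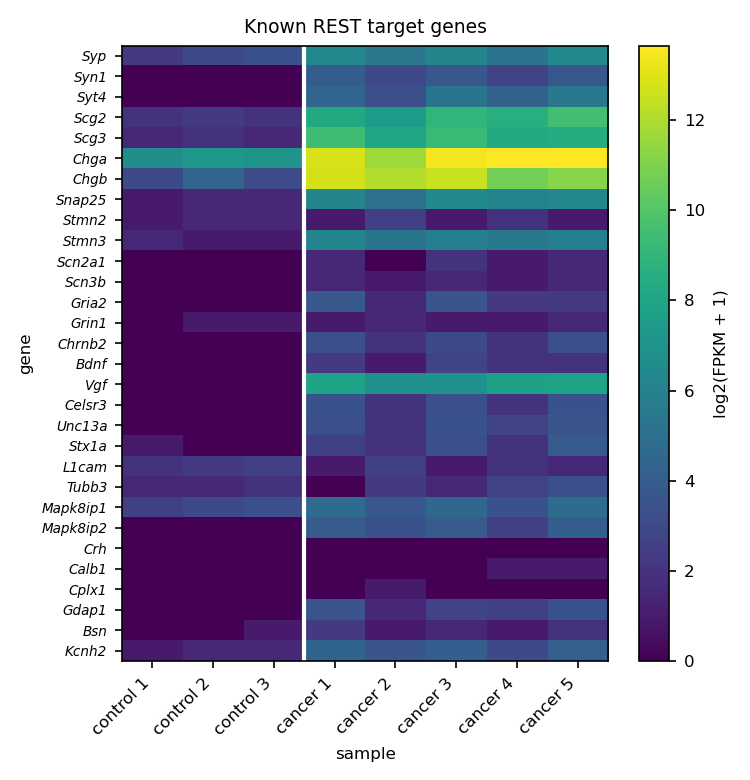
Heat map of log2(FPKM + 1) for 30 known REST target genes (rows) in 3 control and 5 cancer samples (columns, separated by a white line). Chga, Chgb, Scg2, Scg3 and Vgf are bright in every cancer, while Stmn2, L1cam and Tubb3 show no such step and Crh is dark throughout.

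The sequences upstream of the annotated starts were examined for the RE1 element, because Rest was lower in the cancers and 22 of its 30 known targets were called higher. RE1 combines the half-sites CAGCACC and GGACAG, and both were searched on both strands of 32851 RefSeq promoter windows (GRCm38.p6, the mm10 assembly, from 250 bases before a start to 50 after it). The half-sites share no overlapping letters, and a pair required CAGCACC before GGACAG on 1 strand with a gap of 0 to 14 bases. CAGCACC occurred in 7.14% of all windows, GGACAG in 22.2% and a pair in 0.12%. Of the 30 known targets 20 were matched by symbol, with 27 windows, of which 25.9% held CAGCACC, 22.2% held GGACAG and 7.4% (2 windows) held a pair. These genes were listed for established REST binding or repression, so that a higher share is not separate evidence on REST. The 2 pairs lay just before the start site of Scg2 and just after that of Unc13a, on the plus strand and so opposite to both genes. They are shown because they are the pairs found among the known targets, with the half-sites in capitals and 4 bases on either side. With these flanks, the first lies at chr1:79440023-79440043, from base -17 to base 3 counted from the start base as 0, with a gap of 0. The second lies at chr8:71671725-71671753, from base 4 to base 32, with a gap of 8.
Scg2: gtttCAGCACCGGACAGctcc
Unc13a: gcttCAGCACCgggggcgcGGACAGcgcc

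Among the members, 8 of 10 genes were matched by symbol, with 26 windows, of which 0 held CAGCACC, 5 (19.2%) held GGACAG and 0 held a pair. Rest and Celf4 were not matched and so not searched. RE1 elements often lie far from a start site, in introns included, and these letters were sought in the windows only. The upstream sequences of Srrm4, Elavl4 and Nova2 are shown as those of members listed at 0 in every control and above 0 in every cancer whose RefSeq start is that of the deposited locus. They are read 5′ to 3′ on the strand of the gene up to the base before the start, at chr5:116591818-116592067 (minus strand), chr4:110351912-110352161 (minus strand) and chr7:18925638-18925887 (plus strand), and none of them holds a half-site, so that no letter is in capitals. Their G+C content was 63.2%, 53.6% and 71.2%, beside a median of 52.7% over all windows and 60.8% over the windows of the members.
Srrm4: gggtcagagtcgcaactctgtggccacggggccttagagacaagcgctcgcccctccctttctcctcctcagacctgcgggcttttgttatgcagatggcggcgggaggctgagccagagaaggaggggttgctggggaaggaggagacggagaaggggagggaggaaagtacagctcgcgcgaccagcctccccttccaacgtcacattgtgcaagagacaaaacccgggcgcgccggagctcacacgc
Elavl4: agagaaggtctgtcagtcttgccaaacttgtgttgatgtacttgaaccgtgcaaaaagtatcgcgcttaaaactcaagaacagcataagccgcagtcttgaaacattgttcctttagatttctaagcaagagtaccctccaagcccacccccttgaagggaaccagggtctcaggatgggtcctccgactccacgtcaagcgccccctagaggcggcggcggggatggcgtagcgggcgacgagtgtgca
Nova2: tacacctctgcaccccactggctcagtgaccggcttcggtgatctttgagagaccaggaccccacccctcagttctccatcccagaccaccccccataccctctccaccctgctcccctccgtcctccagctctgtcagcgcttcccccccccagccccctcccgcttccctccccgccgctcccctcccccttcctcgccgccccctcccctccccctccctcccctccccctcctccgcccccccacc

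Since the RNA-binding protein genes are markers of neurons, the libraries were examined for enteric neurons. Phox2a, a transcription factor of enteric neurons, was listed at 0 in all 8 libraries, as were the cholinergic genes Chat, Slc5a7 and Slc18a3. Of 14 enteric neuron markers 8 were tested, of which 3 (Ret, Nefl and Nefm) were higher and 0 lower. The 37.5% called compares with 34.5% of all genes, and Nefl and Nefm, at 0 in every control, passed the low-value filter through the cancers. The list had a summed FPKM of 27 to 109 in the cancers and 10 to 12 in the controls. Nefm, a neurofilament gene, was at 17, 5, 12, 4 and 14 in the cancers and at 0 in each control, and Ret, a receptor tyrosine kinase, was at 9, 5, 8, 4 and 15 and at 1 in each control. Nefm and Ret were lowest in cancers 2 and 4, as were Celf3, Celf4 and Srrm4. Other markers of the list had another order, with Vip (0, 25, 5, 9 and 1 in cancers 1 to 5), Gal (0, 28, 2, 2 and 2), Tac1 (14, 22, 4, 1 and 1) and Hand2 (0, 12, 3, 3 and 2) highest in cancer 2, where the sum of the list was also highest. The part of neurons in the levels of the members was not tested. Sox10, the defining transcription factor of enteric glia, was also at 0 throughout, and the 8 glial markers summed to 4 to 24 FPKM in the cancers and 34 to 49 in the controls. Of the 5 tested, Erbb3 was lower, at 1, 18, 2, 6 and 18 in the cancers and at 45, 33 and 48 in the controls. Without Erbb3 the 7 other markers summed to 3 to 6 and to 0 to 1, so that the lower sum in the cancers rested on that gene. Vip, Gal, Tac1, Hand2, Erbb3, Ret and the neurofilament genes were named after their values were seen.

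Endocrine cell markers moved with the RNA-binding protein genes. Of 12 markers 11 were higher and 0 lower, beside 16.2% of all genes called higher, but 5 of the 12 were listed at 0 in every control and passed the low-value filter through the cancers. The markers had a summed FPKM of 2342 to 7758 in the cancers and 73 to 82 in the controls. Insm1, an endocrine zinc finger factor, was at 43, 24, 59, 24 and 52 in the cancers and at 1 in each control (log2 difference 4.28 ± 0.33 SE, adjusted p = 0.00054 in limma). Insm1, like Celf3, was lowest in cancers 2 and 4, as were Neurod1, Nkx2-2, Pax6, Pcsk1, Cpe, Ddc and Slc18a1. Pcsk2 (158, 182, 96, 169 and 280 in cancers 1 to 5), Isl1 (40, 18, 32, 11 and 8) and Scgn (10, 66, 17, 7 and 1) had another order. These markers beside Insm1 were named after their values were seen. Of the adrenal medulla markers, Th was at 9, 8, 1, 0 and 0 in the cancers and 0 in the controls, and Dbh and Pnmt were at 0 in all 8 libraries. The part of endocrine cell number in the levels of the members was not tested.

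**Figure D5:**
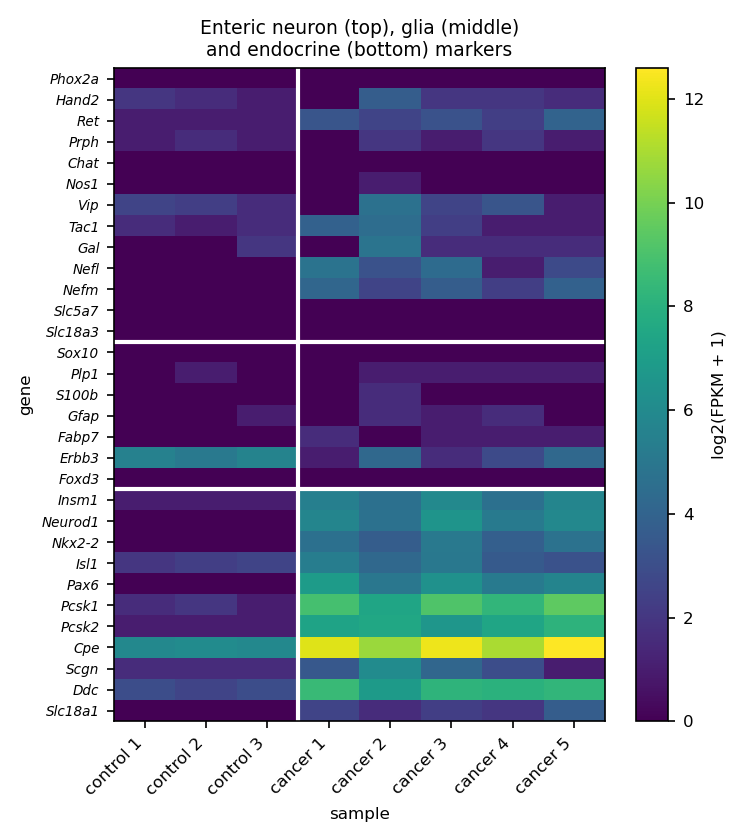
Heat map of log2(FPKM + 1) for the markers reported of enteric neurons (top block), glia (middle) and endocrine cells (bottom) in 3 control and 5 cancer samples, with white lines between blocks and groups. Phox2a, Chat, Slc5a7, Slc18a3, Sox10 and Foxd3 are dark in every sample, whereas most of the endocrine block is brighter in every cancer than in any control, with Scgn as an exception, at 1 FPKM in cancer 5 and 2 in each control.

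The genes whose profile over the 8 samples was most like that of each tested member were sought among 13139 tested genes with a mean FPKM of at least 1, by the root mean square distance of log2(FPKM + 1) after centring. For Rest these were Arfgef2 (0.15), Pgap1 (0.15) and Wee1 (0.16). Those of Celf3 included Kcnh6 (0.33) and Sstr3 (0.37), and for Celf4 they were Bhlhb9 (0.22), Bex2 (0.27) and Gfra1 (0.27). Those of Elavl4 were C630043F03Rik (0.12), Klhl29 (0.16) and Rsph9 (0.18). For Nova2 they were Glb1l (0.11), Tmem194b (0.11) and Rab23 (0.12), while 31 genes with exactly the 8 values of Nova2 had a mean under 1 and were not searched. No nearest genes are given for Srrm4 and Nova1, whose 8 values were held exactly by 4 and by 3 other genes.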

How the data were processed

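RNA of 5 SCJ cancers and 3 control SCJ tissues was sequenced from directional polyA libraries. The authors used cutadapt for trimming, cuffquant on UCSC mm10 genes and Cuffnorm to make FPKM, and the submitters' processing notes also name TopHat2 (cutadapt 1.8, TopHat2 2.0.13 and Cuffnorm 2.2.1). The normalization option of Cuffnorm and the strand setting are not given in the sources used here. The deposited values are FPKM that the authors rounded to whole numbers (100% are whole), and are handled as a score rather than as reads. All 8 columns were used. Depth is unknown, so no counting interval or limit of detection is given.

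The 14357 genes listed at 1 or more in 3 or more samples were fitted on log2(FPKM + 1), a pseudocount of 1, in R 4.3.3 with limma 3.58.1, whose lmFit was followed by eBayes with a trend. Benjamini-Hochberg adjustment covered all of them, at a threshold of 0.05. Single genes and ratios were compared by two-sided exact permutation tests. No 2 libraries shared the value of more than 30.4% of the tested genes. The fit was tested on simulated data with changes placed only in genes with a mean log2(FPKM + 1) above 3. It was thus not tested for members at a few FPKM. Deposited loci overlapped the RefSeq entry of 98.9% of 21526 genes. Sequences are from RefSeq (GRCm38.p6).

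The members and the gene lists were chosen with earlier results of these data known. Named genes are the members, Trp53, Rb1, the relatives used in a ratio, up to 4 genes of each other list with the largest change, the defining genes of each cell type and the genes closest in profile, and others are named where they are counted, chosen after their values were seen. Alternatives were pseudocounts of 0.1 and 0.01, no filter, a mean of at least 5, a replicate block, array weights, quantile normalization, TPM, no trend in eBayes and leaving out each sample. Some genes of the marker lists and profile searches are counted with the others and are not reported here.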

Additional observations from a re-analysis of the deposited data

Results flagged for a closer look

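Celf5 was listed at 1 FPKM in cancer 3 and at 0 in the 4 other cancers and the 3 controls, which sets cancer 3 apart from the rest of its group by Dixon's criterion. The gap is a single rounding step. Among 26 genes examined in this way, 1 had such a sample, and chance alone gives about 1 in 20.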

How the results depend on the processing

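The 7 members past the threshold stayed 7 with other pseudocounts, without a filter, without trend, with array weights and without any single sample, and were 6 with TPM and 5 with quantile normalization. A mean of at least 5 left 2, since it tests fewer genes. The replicate numbers do not pair the samples (correlations of -0.021, -0.194 and -0.104 between same-numbered samples). A replicate block left 2 members and moved the count over all genes from 4948 to 1534, other splicing regulators from 6 to 1 and REST cofactors from 7 to 1. Over all genes TPM gave 7704 calls, 93.1% of them higher against 47% on the deposited scale, and array weights gave 8148. Leaving out 1 sample gave 2490 to 5252, with 2490, 2643 and 2815 without control 1, 2 or 3. Relatives went from 2 to 0 with a mean of at least 5 and to 5 with TPM. Cofactors were 12 with TPM, 3 with quantile normalization, 11 with array weights and 2 to 8 without 1 sample (2, 3 and 3 without controls 1, 2 and 3). Other splicing regulators were 2 to 6 without 1 sample (3 without cancer 3, 2 without any 1 of the controls). Known REST targets went from 22 to 13 with a mean of at least 5. Ratios past the threshold went from 5 to 0 without any 1 sample, where fewer splits remain and the smallest exact p is larger. Signs turned for Celf1 with TPM (0.79) and quantile normalization (0.19), Srrm1 (0.71 and 0.08) and Trp53 (0.86 and 0.13), for Ctdsp1 (0.09) and Usp15 (0.11) with TPM, for Trp53 when 1 sample was left out (-0.29 to 0.03) and for Srrm2 without cancer 1 or 5 (-0.06) or control 1 (-0.02). The TPM values include the shift of all genes by 0.81, and relative to it Celf1, Srrm1, Trp53, Ctdsp1 and Usp15 stood at -0.02, -0.10, 0.05, -0.72 and -0.70. The ratio of Rest to Rcor1, added after seeing the data, was 0.59. Of the values for members under these settings, with the 3 added ratios of Rest counted among them, 108 kept direction and side of the threshold and 8 lost the call. The 1 that turned was the ratio of Rest to Rcor1, and no log2 difference of a member changed sign. Other causes were not tested. Depth is unknown, and rounding to whole numbers limits the members at a few FPKM most.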
